A study of Rattus with 9 samples.

Results

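Neutrophils of the rat bile duct were selected on their own RNA, as retained barcodes in which S100a8 and S100a9, the subunits of the alarmin calprotectin, made up at least 5% of the UMIs and in which Csf1r (monocytes and macrophages), Fcnb (inflammatory monocytes), Cd3e (T cells), Cd79b (B cells), Epcam (epithelium) and Lum (fibroblasts) had 0 UMIs. A UMI is a tag that counts 1 captured RNA molecule. A barcode was retained when it held 401 to 5999 genes, when mitochondrial genes gave under 25% of its UMIs and when hemoglobin genes gave under 3%. The rule found 8897 neutrophils among 150379 retained barcodes. Before the 6 lineage genes were applied, 10738 barcodes passed the S100 limit.

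The study profiled rat bile duct by droplet-based scRNA-seq, and 20 libraries from 9 samples were used. Sham animals, which had no transplantation, gave 3 samples of 1 library each. The transplant arm, sampled once on day 1, day 3 and day 7 post-LT with 3 libraries a day, received a liver graft with ischemic bile duct injury. The raised-flow arm, sampled on the same days with 3, 2 and 3 libraries used, received such a graft and had the splenic and gastroduodenal arteries ligated, so that hepatic arterial flow rose, and both arms share the transplantation and the injury. The labels give neither strain nor sex, and they do not tie samples or libraries to individual animals, so p-values here measure only the spread between these samples, which may be technical. Another library of the raised-flow sample of day 3 was not analysed here.

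Neutrophils are short-lived granulocytes that leave the bone marrow with ready-made granules and are among the first leukocytes to enter injured tissue. They follow CXC chemokines through Cxcr2, carry antimicrobial proteins in azurophil, specific and gelatinase granules, and can themselves release chemokines. Type I and II interferons turn on a broad antiviral program in them, and low oxygen turns on a set of HIF target genes. In liver transplantation they are a known part of ischemia-reperfusion injury.

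The label was checked against genes that the rule did not use. Csf3r, the receptor for the neutrophil growth factor G-CSF, had a UMI in 10.0% to 70.6% of the neutrophils of a sample and in 0% to 3.50% of the barcodes with Cd3e, which should lack it. G0s2 was seen in 95.5% to 100% of neutrophils, against 1.20% to 20.3% of Cd3e barcodes. Retnlg, a resistin-like gene of rodent neutrophils, was seen in 5.00% to 66.7%, against 0% to 1.05%. Sham sample 3 held 2 UMIs of Csf3r, 2 of Retnlg and 0 of Mmp8 in its 20 neutrophils, beside 682 of G0s2. Apart from G0s2, these genes thus back the label little in that sample. Genes with a symbol other than an identifier were ranked by ratio to all other retained barcodes. Retnlg led (139-fold), followed by the rule genes S100a9 (131-fold) and S100a8 (106-fold), then Mmp8 (63.1-fold) and Pglyrp1 (60.1-fold). Mmp8 and Pglyrp1 encode a granule collagenase and a granule peptidoglycan-binding protein. These ratios are a description of how the cells were chosen. Granule genes of precursors were uneven. Mpo was at 0 UMIs in every sample, and Ltf was at most 0.294 CPM, whereas Elane, the elastase of azurophil granules, was 69.8 to 183 CPM in the transplanted samples, Camp 274 to 909 CPM and Olfm4, a specific granule protein, 14.1 to 189.8 CPM. CPM is the unit of all levels here, and scales the UMIs of a gene to a common total of neutrophil UMIs.

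In the 6 transplanted samples, the defining markers of most other cell types were lower in neutrophils than in empty barcodes (100 UMIs or fewer). The 6 lineage genes were left out of these sums, since the rule set them to 0, and the other markers of the same cells may be lowered by it as well. The summed markers of epithelium were 39.99 to 236.9 CPM in neutrophils and 1323 to 7244 CPM in empty barcodes. The monocyte or macrophage markers were 69.6 to 342.8 CPM against 639 to 3720 CPM. Eosinophil markers were the other way round, at 43.3 to 140.8 CPM in neutrophils and 7.79 to 17.8 CPM in empty barcodes. Of the 5 eosinophil genes, 3 had 0 UMIs in the neutrophils of each of these samples, so the sum came from the others. Free RNA from empty barcodes made up an estimated 3.70% to 8.50% of neutrophil UMIs. Free RNA alone would thus give other markers only that share of their empty-barcode level, so a level below that of empty barcodes is a weak check. Several markers of epithelium and fibroblasts were also among the genes that set this estimate. Just inside the S100 limit, the 392 barcodes at 5% to 6% had Csf3r in 45.4%, G0s2 in 96.4% and Retnlg in 10.2%. Just outside it, the 407 barcodes at 4% to 5% had them in 47.2%, 96.6% and 10.6%. Across 190 pairs of libraries, 9 pairs shared a neutrophil barcode, at most 2 barcodes a pair.

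Neutrophils were rare in sham bile duct and made up several percent of the retained barcodes in every transplanted sample. They were 28 of 2456 barcodes (1.14%, exact binomial 95% interval 0.759% to 1.64%), 3 of 9971 (0.0301%) and 20 of 11980 (0.167%) in the sham samples. In the transplant arm they were 2451 of 13791 at day 1 (17.8%, 17.1% to 18.4%), 1192 of 8147 at day 3 (14.6%, 13.9% to 15.4%) and 1777 of 34192 at day 7 (5.20%, 4.96% to 5.44%). In the raised-flow arm they were 2219 of 24320 (9.12%, 8.77% to 9.49%), 449 of 17679 (2.54%, 2.31% to 2.78%) and 758 of 27843 (2.72%, 2.53% to 2.92%). All transplanted samples lay above all sham samples, and these intervals cover counting error only.

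**Figure D1:**
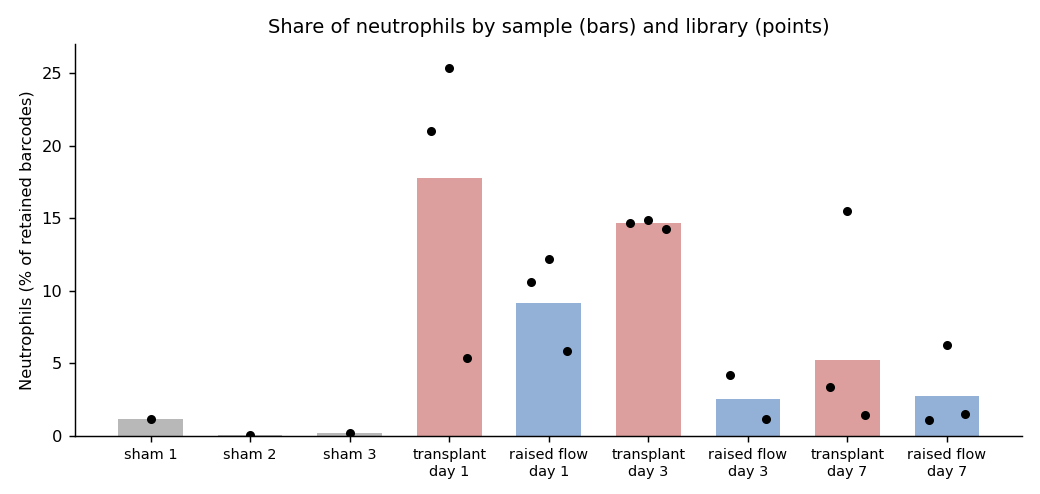
Neutrophils as a percent of retained barcodes, by group and day (bars, samples; points, libraries). All 6 transplanted samples lie above the 3 sham samples, while libraries of 1 sample differ widely, from 1.46% to 15.5% at day 7 of the transplant arm.

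The mean share was 8.67% ± 6.38 (SD, n = 6) in transplanted samples and 0.446% ± 0.605 (SD, n = 3) in sham, 8.22 percentage points apart (p = 0.0238 in a two-sided exact permutation test, the smallest p that 6 against 3 samples allow). Taken as a share of the barcodes with Ptprc, the pan-leukocyte gene, the difference was 12.8 points and the permutation p was 0.0714. There the groups overlapped, with 3.53% in sham sample 1 against 2.91% and 2.90% at days 3 and 7 of the raised-flow arm. At day 7 the mean was 3.96% ± 1.75 (SD, n = 2), against 13.4% ± 6.12 (SD, n = 2) at day 1, a fall by 9.49 points (exact permutation p = 0.333, the smallest of this design). The raised-flow arm averaged 4.80% ± 3.75 (SD, n = 3) and the transplant arm 12.5% ± 6.55 (SD, n = 3), a difference of -7.74 points (exact permutation of the arms within days, p = 0.25, the smallest of this design). The raised-flow sample was the lower one on each of the 3 days.

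The spread between libraries was wide. Library shares in the transplant arm were 21.01%, 25.3% and 5.36% at day 1, 14.6%, 14.9% and 14.2% at day 3, and 3.34%, 15.5% and 1.46% at day 7. In the raised-flow arm they were 10.6%, 12.2% and 5.82%, then 4.20% and 1.13%, then 1.08%, 6.22% and 1.49%. Libraries 2 and 3 of day 3 in the transplant arm lost 2479 and 3966 barcodes to the hemoglobin limit, and 437 and 337 were retained. With each library taken as a sample, the raised-flow difference was -7.82 points (permutation p = 0.017). That test takes libraries of the same sample as independent, which the labels do not state. At day 7 a single library in each arm held most of the neutrophils.

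The lower limit on genes touched these shares, since neutrophils carry little RNA. The median neutrophil of a sample had 412 to 651.5 genes and 1006.5 to 2269 UMIs. Among barcodes with over 200 and at most 400 genes, a further 4972 passed the S100 and lineage limits, 4891 of 31949 (15.3%) in transplanted samples and 81 of 4127 (1.96%) in sham. By sample they were 0%, 1.77% and 4.96% of such barcodes in sham, 4.03%, 2.69% and 21.2% at days 1, 3 and 7 of the transplant arm and 8.19%, 6.66% and 26.4% in the raised-flow arm, so the groups overlapped. At day 7, library 2 of each arm held most of them, 1693 of 1893 and 2078 of 2091. Without these libraries the shares of day 7 were 3.32% and 0.288%, and that of all transplanted samples 4.37%. With these barcodes counted, the difference of day 7 from day 1 was -3.56 points and that of raised flow -5.18 points, while the transplanted samples stood 8.90 points above sham.

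Gene levels were compared over samples, with the UMIs of all neutrophils of a sample summed. The second sham sample, with 3 neutrophils, was left out, so the fits held 8 samples. Neutrophil UMIs came to 50412 and 20239 in the sham samples used and to 730530 to 5999384 in transplanted samples. edgeR's quasi-likelihood test compared 6338 genes, adjusted p-values are Benjamini-Hochberg values over all of them, and a gene was called at an adjusted p under 0.05. Fold changes are log2 values with their standard error (SE), and levels are CPM. The second library of day 1 in the transplant arm stood apart from the other 2 of its sample, and values that change without it are given.

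From day 1 to day 7 post-LT, with both arms in the fit, most interferon-stimulated genes rose in neutrophils. Of 26 interferon-stimulated genes, 22 rose and none fell, with a median log2 fold change of 2.52, beside 2.82% of all genes tested called higher, 0.568% called lower and a median of -0.02. The remaining 4 were Oasl (0.68), Oasl2 (1.06), Oas1a (-0.38) and Ifit1 (-0.65). In all, 215 genes were called (3.39%), 179 higher and 36 lower at day 7.

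Isg15 encodes a ubiquitin-like protein that is attached to other proteins in the antiviral response. It was 1424 CPM in the transplant arm and 726 CPM in the raised-flow arm at day 1, 4219 and 11275 CPM at day 3, and 11613 and 5381 CPM at day 7. The sham samples had 1190 and 1878 CPM. Day 7 did not overlap day 1, which held for 46.1% of all genes tested after TMM scaling (scaling by edgeR's library factors), and day 1 was close to sham. The difference of day 7 from day 1 was 3.02 (SE 0.62, adjusted p = 0.00269), and it stayed called in 17 of 23 alternative analyses, with estimates of 1.86 to 3.76.

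Rsad2, which encodes the antiviral enzyme viperin, was 12.3 and 9.14 CPM at day 1 (transplant, then raised flow), 91.8 and 285 CPM at day 3, and 148 and 139 CPM at day 7. It rose by 3.74 (SE 0.50, adjusted p = 7.92e-06) and was called in all 23 alternatives, with estimates of 2.98 to 4.37. Irf7, the transcription factor that amplifies the type I interferon response, was 179 and 96.0 CPM at day 1, 415 and 998 CPM at day 3, and 738 and 831 CPM at day 7. It rose by 2.49 (SE 0.48, adjusted p = 0.00129), and day 7 of both arms lay well above both samples of day 1.

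Mx1, a GTPase that blocks viruses, was 9.0009 and 0.559 CPM at day 1, the latter from 3 UMIs, and 92.0 and 56.6 CPM at day 7 (4.10, SE 0.60, adjusted p = 2.99e-05). Gbp2, a guanylate-binding protein typical of the interferon-γ response, was 77.5 and 83.9 CPM at day 1, 1065 and 2356 CPM at day 3, and 441 and 814 CPM at day 7 (2.85, SE 0.49, adjusted p = 0.000291). Both arms moved the same way, and Gbp2 stood highest at day 3. The antiviral effectors Ifit3 and Ifitm3 rose by 1.96 and 1.77.

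The interferon-induced chemokines that attract T cells through Cxcr3 rose too. Cxcl10 was 12.3 and 29.3 CPM at day 1, 544 and 3163 CPM at day 3, and 120 and 382 CPM at day 7 (3.48, SE 0.49, adjusted p = 2.1e-05). Cxcl9 was 0.167 and 0 CPM at day 1 and 30.9 and 67.2 CPM at day 7. Cxcl11 had 0 UMIs in both samples of day 1 and 5.59 and 55.7 CPM at day 7, so no fold is given. Cxcl10 and Cxcl11 were highest at day 3 of the raised-flow arm. Ifit1, another antiviral effector, was highest at day 3, with 15.7 and 15.9 CPM at day 1, 178 and 79.4 CPM at day 3, and 11.5 and 8.84 CPM at day 7. Day 3 entered the fit but was not itself compared with day 1.

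**Figure D2:**
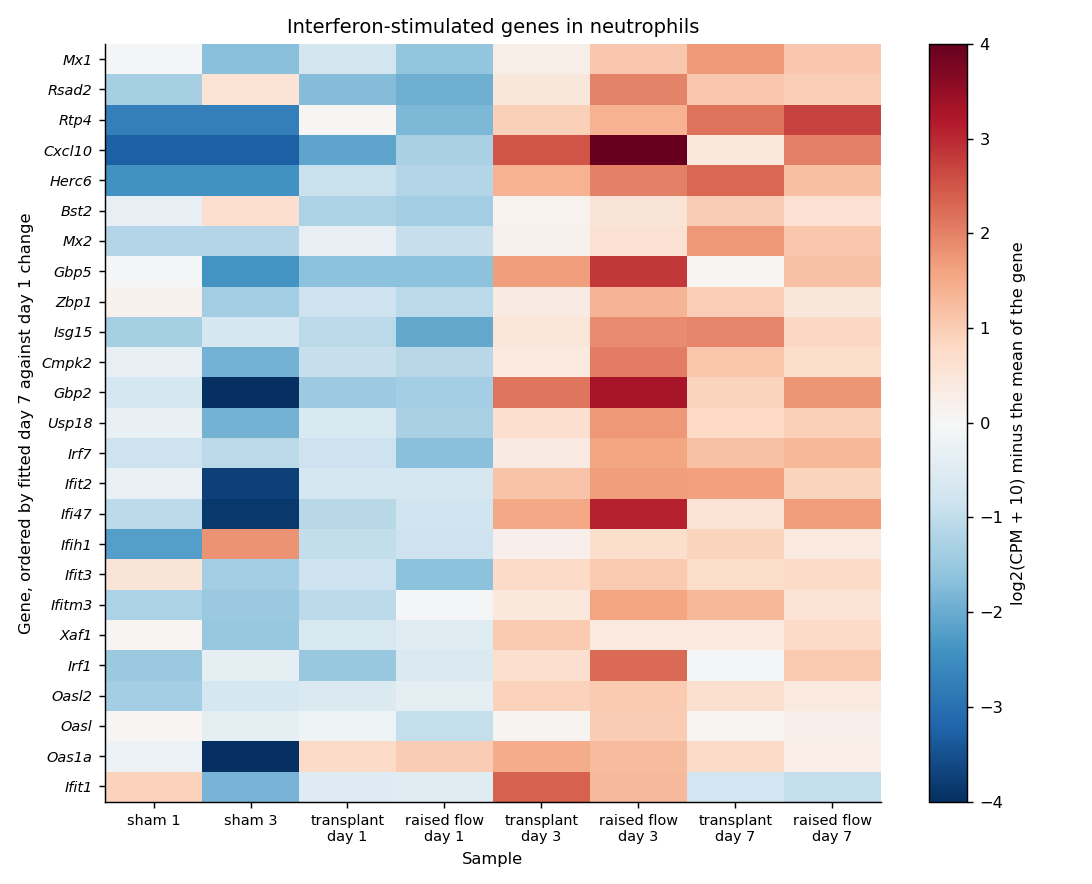
Levels of 25 of the 26 interferon-stimulated genes in the neutrophils of 8 samples, as log2(CPM + 10) minus the mean of each gene over the samples. Most genes are low at day 1 and high at days 3 and 7 in both arms.

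The number of interferon-stimulated genes called moved with the samples in the fit. It was 9 without the day 7 sample of the transplant arm, 14 without the day 1 sample of the raised-flow arm and 15 without the day 1 sample of the transplant arm. With samples of fewer than 30 neutrophils also left out, which removes sham, 7 of 26 were called. With libraries as samples 22 were called, also 22 after subtraction of the empty-barcode profile, and 21 without the second library of day 1 of the transplant arm.

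The same genes were counted per cell. Each barcode was thinned to 1000 UMIs, which left out 1 to 113 shallower neutrophils per sample. At least 3 of the 26 genes were detected in 29.4% and 30.9% of neutrophils at day 1 (transplant, then raised flow), in 68.6% and 92.4% at day 3, and in 85.3% and 84.6% at day 7. In sham samples 1 and 3 the share was 37.0% of 27 and 27.3% of 11 neutrophils. Among Cd3e barcodes it was 12.8% and 3.96% at day 1, 13.5% and 14.4% at day 3, and 22.9% and 9.13% at day 7. In the 3 sham samples it was 3.03% to 13.4% of them. The share of Cd3e barcodes was thus also higher at day 7 than at day 1 in both arms. No library of day 3 or 7 overlapped with those of day 1 in this measure, at 7.95% to 39.7% at day 1, 62.3% to 93.6% at day 3 and 55.2% to 96.3% at day 7.

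**Figure D3:**
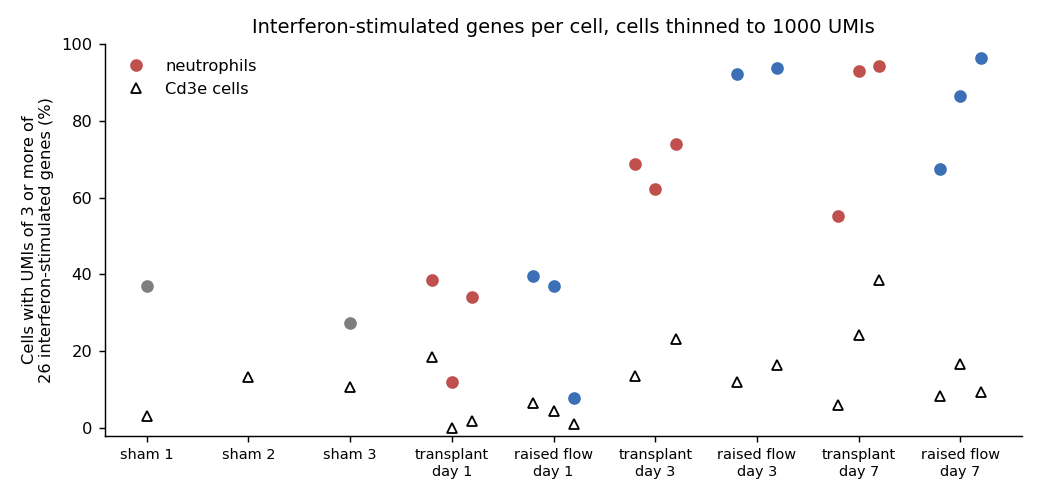
Percent of barcodes thinned to 1000 UMIs in which at least 3 of 26 interferon-stimulated genes were detected, for each library with at least 10 such neutrophils (filled points) and for Cd3e barcodes (triangles). Neutrophils of days 3 and 7 lie above those of day 1 in every library shown.

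The rise was compared with that in 23070 retained barcodes with Csf1r and without Cd3e, Cd79b, Epcam or Lum, which are monocytes or macrophages by that gene, by the interaction of cell class with day over 10399 genes. For 9 of the 26 interferon-stimulated genes, the change from day 1 to day 7 was higher in neutrophils, and for none lower, beside 1.44% of all genes called higher and 0.798% lower (2.24% in all). The median over the list was 0.91 and over all genes -0.14. Mx1 differed by 2.52 (adjusted p = 2.96e-06), Herc6 by 1.76, Usp18 by 1.74, Isg15 by 1.53 (SE 0.40, adjusted p = 0.00876) and Rsad2 by 1.49 (adjusted p = 0.0397), by edgeR's quasi-likelihood test. Herc6 and Usp18 act on the Isg15 conjugation pathway. In Csf1r barcodes Isg15 was 366 and 57.9 CPM at day 1 and 472 and 235 CPM at day 7. S100a8 was higher in Csf1r barcodes at day 1 than at day 7, as given below, and no upper limit on S100a8 or S100a9 was set for them. The part of neutrophil RNA inside these barcodes in the interferon differences was not tested. An alternative subtracted free RNA from both classes, and its values for these genes are not given here. The count of interferon-stimulated genes called higher was 1 with libraries as samples and 5 with DESeq2. It was 2 without the day 1 or the day 7 sample of the transplant arm and 3 without the day 7 sample of the raised-flow arm.

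Calls in the other lists fell in both directions in this interaction. Higher were 3 of 11 specific granule genes (Pglyrp1, Hp and Camp, the cathelicidin antimicrobial peptide, list median 0.90), 2 of 8 gelatinase and secretory genes (Mmp9 and Mmp8, 1.03) and 3 of 10 chemoattractant receptors (Ccr1, Cxcr2 and Ltb4r, 0.36). Of 8 antiproteases, Slpi, Wfdc21, Stfa2l1 and Stfa2 were higher and Serpinb1a lower (1.78). Of 3 azurophil granule genes, Elane was higher and Cst7 lower (0.33), and of 10 adhesion genes 1 was higher and Itgal lower (-0.24). Single calls of other lists were Padi4, Lta4h and Cxcl1, higher, and Tnip1, Cebpa and Hsph1, lower. The difference was 2.03 for Mmp9, 1.98 for Mmp8 and 1.24 for Camp. It was 2.15 for Cxcr2 and 2.97 for Ltb4r, the receptors for CXC chemokines and leukotriene B4. Without the day 7 sample of the transplant arm, none of the gelatinase and secretory genes and, of the receptors, Ltb4r alone was called. Within neutrophils alone none of Mmp9 (-1.35), Mmp8 (-0.27), Camp (0.96), Cxcr2 (-0.29) and Ltb4r (-1.31) was called between day 7 and day 1. Aqp9, a water and glycerol channel of neutrophils, differed by 2.98 (adjusted p = 1.67e-11) and was not called within neutrophils (-0.48). In Csf1r barcodes the levels of such genes were lower at day 7. Mmp8 was 33.0 and 21.7 CPM at day 1 and 6.73 and 3.57 CPM at day 7 there, Ltb4r 80.8 and 76.4 CPM, then 8.14 and 1.45 CPM, and Aqp9 41.6 and 23.5 CPM, then 3.31 and 1.86 CPM. S100a8 moved with them, from 10165 and 7300 CPM to 595 and 309 CPM in Csf1r barcodes. No upper limit on S100a8 or S100a9 was set for these barcodes, and the part of neutrophil RNA inside them was not tested. Of 22 glycolysis and hypoxia genes, 4 were lower in the interaction, Bnip3 (-1.44), Hk3 (-1.65), Ndrg1 (-1.62) and Slc2a1 (-1.49), and none higher, with a median of -0.41, beside the 0.798% of all genes called lower. Smad7, an inhibitor of TGF-β signalling, was lower by the named-gene rule (-2.14).

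Antigen presentation genes also rose, some of them together with the empty-barcode RNA. Of 13 genes, 9 were higher at day 7 and none lower, with a median of 1.78, beside 2.82% of all genes called higher. Tap1, which transports peptides for MHC class I, was 43.7 and 59.3 CPM at day 1 and 111 and 291 CPM at day 7 (1.78, adjusted p = 0.00774 by edgeR's quasi-likelihood test). Psmb9, an immunoproteasome subunit, was 266 and 269 CPM at day 1 and 676 and 1349 CPM at day 7 (1.78, adjusted p = 0.0157). Both arms were higher at day 7 than at day 1. The MHC class II genes moved with the empty barcodes. Cd74, the invariant chain of class II, was 87.7 and 50.3 CPM at day 1 and 295 and 556 CPM at day 7 (2.47), while empty barcodes went from 403 and 500 CPM to 4325 and 5530 CPM. RT1-Da, a class II chain, rose by 2.93, and its empty-barcode level was 5261 and 6280 CPM at day 7. After subtraction of the empty-barcode profile, Nlrc5, Psmb9, Tap1 and Tapbp remained called higher, Cd74 changed by -0.34, and RT1-Da and RT1-Db1 were called lower. Counts that would fall below 0 were set to 0. For RT1-Da at day 7 the amount subtracted exceeded the level in both arms, so its lower call followed from the subtraction. None of the 13 genes was called in the interaction with Csf1r barcodes.

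Cytotoxic lymphocyte genes were among the largest rises at day 7. Gzmk, a granzyme, was 0 and 0.559 CPM at day 1 and 39.7 and 98.1 CPM at day 7 (7.67, SE 0.69, adjusted p = 1.82e-08). Gzma, another granzyme, was 2.0002 and 0.932 CPM at day 1 and 46.7 and 161 CPM at day 7. Klrk1 (5.12), which encodes the activating receptor NKG2D, Lag3 (4.78) and Gzmm (4.48) were also higher. Ly49i4, a killer cell lectin-like receptor whose family has near-identical copies and is thus uncertain, was at 0 UMIs at day 1 and averaged 30.6 CPM at day 7. The summed NK cell markers moved with these genes, from 10.7 to 13.1 CPM at day 1 to 109 to 151 CPM at day 7 in neutrophils, and from 23.2 to 35.5 CPM to 543 to 694 CPM in empty barcodes. T cell markers in neutrophils went from 0.667 to 2.80 CPM to 17.7 to 19.99 CPM. Empty-barcode RNA would account for 30.6% and 24.7% of Gzmk and 8.30% and 8.90% of Klrk1 in the neutrophils of day 7 (transplant, then raised flow). The part of NK or T cells in the remaining share was not tested. Ubd (5.59) and Gbp6 (4.32), both interferon-γ-inducible, completed the named genes that rose.

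The named genes that fell from day 1 to day 7 included genes of secretory epithelium, Reg3b (-3.27), Agr2 (-2.91), Tff3 (-2.77), Reg3g (-2.74) and Gpx2 (-2.23). Lcn2 (-2.83), which is on the specific granule list, fell too. The empty-barcode profile would account for 54.0% to 100% of Reg3b, Agr2, Tff3 and Reg3g, and after its subtraction Reg3b changed by 0.21 and Reg3g by 0.77. Lcn2, a siderophore-binding protein of specific granules and of injured epithelium, was 367 and 1465 CPM at day 1 and 190 and 60.1 CPM at day 7. The empty barcodes of day 1 had 964 and 897 CPM, and free RNA made up an estimated 3.70% and 4.70% of neutrophil UMIs there. The call of Lcn2 was lost in 10 of 23 alternatives, and its value was -1.12 without the day 1 sample of the raised-flow arm. Serpinb1a, an inhibitor of neutrophil proteases, was 2718 and 7334 CPM at day 1 and 2189 and 392 CPM at day 7 (-2.59, SE 0.74, adjusted p = 0.0465). Without the day 1 sample of the raised-flow arm it was -0.38. Prdx5, a peroxiredoxin, was 4187 and 3920 CPM at day 1 and 1714 and 452 CPM at day 7 (-2.23, adjusted p = 0.0135). Its call was lost in 7 of 23 alternatives, with estimates of -3.10 to -1.35, and it was -1.35 without the day 1 and -1.39 without the day 7 sample of the raised-flow arm.

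Of 21 tested genes of glycolysis and hypoxia, 3 fell and none rose from day 1 to day 7 (Bnip3, Ero1a and Pfkl), with a median of -0.70, beside 0.568% of all genes called lower and a median of -0.02. Bnip3, a mitophagy gene induced by HIF, was 228 and 21.1 CPM at day 1 and 25.9 and 7.95 CPM at day 7 (-2.47, adjusted p = 0.000887 by edgeR's quasi-likelihood test). Ero1a, an endoplasmic reticulum oxidase induced by low oxygen, fell by 2.35 (adjusted p = 0.00174). No gene of the list was called without the day 1 or the day 7 sample of the transplant arm, or with the second library of day 1 of the transplant arm left out, where Bnip3 changed by -0.77 and Ero1a by -0.81.

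The remaining lists held few calls between day 7 and day 1. Of 15 cytokines and chemokines, Il23a rose by 1.84 and Cxcl3 fell by 2.43 (SE 0.53, adjusted p = 0.00494). The value of Cxcl3, a ligand of Cxcr2, was -1.35 without the second library of day 1 of the transplant arm. Of 11 specific granule genes, Ngp rose, from 1 and 10 UMIs at day 1 to 179 and 0 at day 7, so that 1 sample carried the call, and Lcn2 fell. Casp4, the inflammatory caspase of lipopolysaccharide sensing, rose by 2.28 among 13 survival and death genes, and Dusp2 by 1.92 among 17 immediate early genes. Serpinb1a was the call among 8 antiproteases. None was called among 17 NF-kB genes (median 0.42), 10 adhesion genes (-0.10), 9 chemoattractant receptors (-0.29), 7 gelatinase and secretory genes (-0.43), 6 genes of the NADPH oxidase and extracellular traps (-0.49), 12 maturation transcription factors (-0.32), 9 lipid mediator genes (-0.13), 5 cell cycle genes (0.84), 9 dissociation and stress genes (-0.0039) and 3 azurophil granule genes (-0.73). No rat defensin passed the filter on low counts. Il1b, the inflammatory cytokine, was 6485 and 4876 CPM at day 1 and 8646 and 6969 CPM at day 7 (0.47), and Cxcl2 was 17956 and 5731 CPM, then 19189 and 6966 CPM (0.18). Neither passed the test.

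Between the raised-flow and transplant arms over the 3 days, few genes were called, and most of the named ones were lower under raised flow. In all 5 genes were higher (0.0789% of those tested) and 15 lower (0.237%). Of 21 glycolysis and hypoxia genes, Bnip3, Egln3 and Ero1a were lower and none higher. The median of that list was -0.74, with 1 positive value, beside -0.01 over all genes tested. Cxcl3 was the call among 15 cytokines and chemokines (median -0.63).

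Cxcl3 was 1737, 1563 and 518 CPM at days 1, 3 and 7 of the transplant arm and 271, 43.8 and 37.1 CPM in the raised-flow arm (-3.96, SE 0.47, adjusted p = 1.19e-05 by edgeR's quasi-likelihood test). All 3 raised-flow values lay below all 3 transplant values. The related Cxcr2 ligand Cxcl2 was 17956, 21945 and 19189 CPM in the transplant arm and 5731, 9756 and 6966 CPM under raised flow, also without overlap, but did not pass the test (-1.56, adjusted p = 0.315). For all genes tested, groups did not overlap in 9.59%.

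Bnip3 was 228, 101 and 25.9 CPM in the transplant arm and 21.1, 12.3 and 7.95 CPM in the raised-flow arm (-2.98, SE 0.39, adjusted p = 6.25e-05). Ero1a was 654, 215 and 54.98 CPM against 75.0, 39.7 and 38.0 CPM (-2.21, adjusted p = 0.00246). The arms did not overlap in Bnip3 but did in Ero1a, where day 1 under raised flow exceeded day 7 of the transplant arm. Egln3, the prolyl hydroxylase that feeds back on HIF, was 47.7, 51.5 and 17.9 CPM against 17.5, 8.21 and 7.95 CPM (-1.78, adjusted p = 0.0150). P4ha1, a collagen prolyl hydroxylase and HIF target, was 114, 99.4 and 26.8 CPM against 28.7, 16.4 and 16.8 CPM (-1.88, adjusted p = 0.00798). The arms overlapped in the CPM of P4ha1 too, at the same samples, though not after TMM scaling. Other hypoxia genes were not called, such as Pgk1 (-0.65) and Vegfa (-0.83).

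Ca4, a membrane-bound carbonic anhydrase, was 1221, 1149 and 632 CPM in the transplant arm and 567, 309 and 78.6 CPM in the raised-flow arm (-2.09, SE 0.41, adjusted p = 0.0102). Its level was lower at each later day in both arms, and 567 CPM at day 1 under raised flow was below 632 CPM at day 7 of the transplant arm, so the arms did not overlap. Ftsj1, a tRNA methyltransferase (-1.70), and Xbp1, a factor of the unfolded protein response (-1.62), were also lower. The named gene that was higher was Ccl21, a chemokine of lymphatic endothelium and not of neutrophils, at 2.0002, 6.12 and 4.998 CPM against 211, 21.9 and 15.9 CPM (3.45, adjusted p = 0.00870). One library of day 1 under raised flow held it at 581 CPM, and without that sample the value was 1.57 and not called. Cxcl10 was the call among the 26 interferon-stimulated genes, higher by 1.70 under raised flow, and the median of that list was -0.10.

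**Figure D4:**
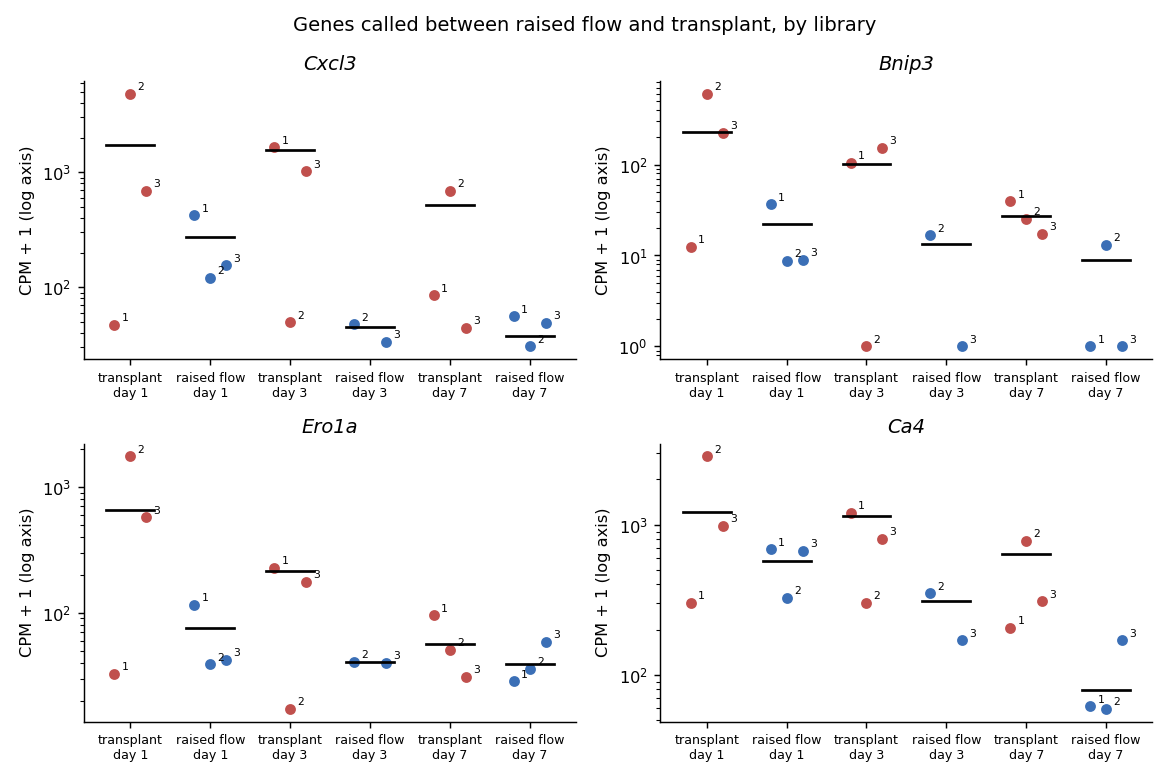
Levels of Cxcl3, Bnip3, Ero1a and Ca4 in neutrophils (CPM + 1, log axis) at days 1, 3 and 7 of both arms, with bars at the sample level and a number for each library. The second library of day 1 in the transplant arm is the highest for each of the 4 genes.

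These calls were lost in several alternatives, and 1 library carried many of them. In the transplant arm at day 1, Cxcl3 was 46.2, 4833 and 694 CPM in the 3 libraries, Bnip3 11.5, 602 and 221 CPM, Ero1a 31.9, 1741 and 571 CPM, and Ca4 300, 2850 and 982 CPM. Without the second of these libraries 4 genes were called between the arms, all higher, and none of the lower genes named above. Cxcl3 was then -3.01 (adjusted p = 0.312), Bnip3 -1.65 (adjusted p = 0.272), Ero1a -1.05 and Ca4 -1.51. With libraries as samples no gene was called, with 304 genes at an unadjusted p under 0.05. The main fit had 303 of 6338 there, near what that threshold passes by chance. Cxcl3 was -3.58 and Bnip3 -3.45 with libraries as samples (adjusted p of Bnip3 0.168). With at least 30 neutrophils required, which removes sham, edgeR called no gene (361 at an unadjusted p under 0.05), and Cxcl3 and Bnip3 had an adjusted p of 0.0514 each. Bnip3 was the 1 gene called when further lineage genes (Col3a1, Krt8, Cdh5, C1qa, Cd3g, Nkg7, Ms4a1 and Cpa3) also had to be at 0, a setting in which sham sample 3 fell under the minimum of 10 neutrophils and left the fit as well. Without sham sample 1, 2 genes were called, and 3 without sham sample 3, with Cxcl3 and Bnip3 among them each time. It was 7 without day 3 of the raised-flow arm and 12 without day 7 of the transplant arm.

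Per cell, Bnip3, Ero1a, Egln3 and P4ha1 were counted together. They were chosen because they were called lower under raised flow in these cells, so the difference between the arms is a description. After thinning to 1000 UMIs, at least 1 of them was detected in 31.7%, 25.4% and 8.43% of neutrophils at days 1, 3 and 7 of the transplant arm and in 10.3%, 8.78% and 5.59% in the raised-flow arm. The 3 libraries of day 1 in the transplant arm gave 6.82%, 73.0% and 45.5%. In Cd3e barcodes it was 11.7%, 5.01% and 5.54% in the transplant arm and 5.85%, 4.68% and 4.87% in the raised-flow arm. In sham samples 1 and 3 it was 18.5% and 9.09% of 27 and 11 neutrophils.

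None of 17 immediate early genes was called between the arms, with a median of -0.49 and 1 positive value. No call was made in the other lists, whose medians were -0.20 for specific granule, -0.15 for gelatinase and secretory, 0.22 for antiprotease, -0.01 for chemoattractant receptor, 0.17 for adhesion, -0.15 for NF-kB, 0.04 for NADPH oxidase and trap, 0.05 for survival and death, 0.12 for lipid mediator, -0.14 for maturation factor, 0.19 for cell cycle, 0.32 for antigen presentation, -0.14 for dissociation and -0.22 for azurophil granule genes. Isg15 (-0.41) and Il1b (-0.16) were not called either.

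The comparison of transplanted with sham neutrophils rests on 48 sham cells of 2 samples. In it, 85 genes were called (1.34% of those tested), 41 higher (0.647%) and 44 lower (0.694%), with a median over all genes of -0.10. Its fold changes are the mean of the day terms without the raised-flow term, so they describe the transplant arm. The levels printed beside them are those of both arms. This fit took its scaling factors from genes of at least 100 CPM, a choice made after seeing results. With factors from all tested genes, 94 genes were called, of which 88.3% were higher, in place of 48.2%, and the median over all genes was 0.57. Granule, interferon and glycolytic genes were among those higher in the transplant arm than in sham. None of the 85 calls held when further lineage genes had to be at 0 (0 called by edgeR, 422 genes at an unadjusted p under 0.05). Sham sample 3 then had 9 neutrophils, under the minimum of 10, so sham was the 19 neutrophils of sample 1. The loss of sample 3 alone, with the lineage genes unchanged, also left few genes called. The lost calls are thus not those of the lineage genes alone. With libraries as samples 3 of the calls held, none of them higher. Without day 7 of the transplant arm 21 genes were called, without day 7 of the raised-flow arm 55 and without day 1 of the transplant arm 56.

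Mmp8 was 317 and 0 CPM in the sham samples used and 516 to 1313 CPM in the 6 transplanted samples (2.40). The value of 0 is that of sham sample 3, where this gene backs the neutrophil label little. The second sham sample, left out of the fit, had 1832 CPM from 6 UMIs in 3 neutrophils, above every transplanted sample. Hp, haptoglobin of specific granules, was 258 and 148 CPM in sham and 262 to 1902 CPM after transplantation (2.42), and Pglyrp1 was higher by 1.60. Slpi, a secreted inhibitor of neutrophil elastase, was 7796 and 13242 CPM in sham and 13905 to 37092 CPM after transplantation (1.99), without overlap (groups did not overlap in 37.4% of genes tested). Serpinb1a was higher by 3.99 and the mitochondrial superoxide dismutase Sod2 by 1.82. Cxcl3 was 139 and 0 CPM in sham, 518 to 1737 CPM in the transplant arm and 37.1 to 271 CPM in the raised-flow arm. Its fold change of 4.03 is that of the transplant arm, and the raised-flow arm overlapped with sham.

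Several of the genes called had no UMI in either sham sample. With a floor of 3 counts over the 70651 sham UMIs (42.5 CPM), the mean of transplanted samples was at least 16.7-fold higher for Cxcl10, 15.5-fold for Ca4, 9.02-fold for Lcn2, 4.15-fold for Rtp4, 3.87-fold for Acod1, which encodes the enzyme that makes itaconate, and 1.57-fold for the glucose transporter Slc2a1. Single samples set some of these bounds. That of Cxcl10 was 5.12-fold without day 3 of the raised-flow arm, with both samples of day 1 under the floor, and that of Lcn2 was 3.93-fold without day 1 of the raised-flow arm. For Bnip3 the bound of 1.55-fold rested on day 1 of the transplant arm, since 4 of 6 samples lay under the floor and the mean without it was 33.6 CPM. Hk2, a hexokinase, had 2 sham UMIs and a ratio of 7.85 (counting interval 2.17 to 64.8). Pgk1, a glycolytic kinase, was 218 and 198 CPM in sham and 326 to 1173 CPM after transplantation (2.29).

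Beside 0.647% of all genes called higher and 0.694% lower, 6 of 26 interferon-stimulated genes were higher (Gbp2, Herc6, Isg15, Cxcl10, Rtp4 and Oas1a; median 1.59), 4 of 21 glycolysis and hypoxia genes (Bnip3, Hk2, Slc2a1 and Pgk1; 1.42), 3 of 11 specific granule genes (1.86), 2 of 8 antiproteases (0.94), 1 of 7 gelatinase and secretory genes (Mmp8; 2.40), 1 of 15 cytokines and chemokines (0.02) and 1 of 17 NF-kB genes (0.43). Lower were Cxcr4, the receptor that retains neutrophils in bone marrow (-1.56), among 9 chemoattractant receptors (0.42), and Lta4h (-1.73) and Ltc4s (-5.96), which make leukotrienes B4 and C4, among 9 lipid mediator genes (0.48). The sham level of Ltc4s rested on 4 and 1 UMIs, beside 20 and 25 UMIs at day 1 (transplant, then raised flow), so its fold change is uncertain. With factors from all tested genes, Cxcr4 and Lta4h were not called. No gene of the lists for azurophil granules (median 0.65), adhesion (0.01), the NADPH oxidase and traps (0.57), survival (0.33), immediate early genes (0.01), maturation factors (-0.17), cell cycle (-0.26), antigen presentation (0.61) or dissociation (0.42) was called. Il1b (0.09) and Cxcl2 (1.00) were not called.

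The lower named genes included pancreatic enzymes. Prss1, trypsinogen, was 19.8 and 1383 CPM in the sham neutrophils used and 0 to 8.02 CPM after transplantation (-6.73), and the empty barcodes of those sham samples had 313 and 9151 CPM. Ctrc and Pla2g1b, which also encode pancreatic enzymes, were lower too. Without sham sample 1, 11 genes were called, with Oas1a as the list member among them. Without sham sample 3, 4 genes were called, with Slpi as the list member. Each of these fits holds 1 sham sample, which is assumed to vary like the other groups.

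Set beside Csf1r barcodes, 101 genes differed in their change between sham and transplantation (0.971% of 10399 tested), 61 higher (0.587%) and 40 lower (0.385%) in neutrophils, while the median over all genes was 1.45. Of 18 immediate early genes, 5 were higher and none lower, among them Egr1 (2.69, adjusted p = 7.56e-10 by edgeR's quasi-likelihood test), Atf3 (2.31) and Jun (1.90), with a list median of 1.09. Of 19 cytokines and chemokines, Cxcl1, Cxcl2 (1.76) and Cxcl3 (2.18, but -1.24 without sham sample 3) were higher and Il23a lower, with a list median of 1.49. Of 9 dissociation and stress genes, 3 were higher (Dnaja1, Hspa8 and Hspa1b) and none lower, with a list median of 1.38. These list medians thus lay near or below that of all genes. Gpnmb, a glycoprotein of macrophages, differed by -4.02 (adjusted p = 2.15e-18).

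Neutrophils of a sample also differed among themselves. Retnlg had a UMI in 27.4%, 23.7% and 61.2% of thinned neutrophils at days 1, 3 and 7 of the transplant arm and in 37.2%, 42.7% and 42.4% in the raised-flow arm. Its level was 1540, 2050 and 8349 CPM in the former and 3275, 3430 and 3277 CPM in the latter, with 1408 and 98.8 CPM in the sham samples used, and it was not called between day 7 and day 1 (1.42). The share at day 7 of the transplant arm was 32.6% without its second library.

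Neutrophils with a Retnlg UMI were set beside those without, within each of the 6 transplanted samples, over 19 other genes chosen after earlier results were known. The values are a description, since the split is drawn from the same cells. Mmp8 was detected more often with Retnlg by 28.9 to 42.0 percentage points, Camp by 12.0 to 30.8 and Isg15 by 3.65 to 27.3, each in 6 of 6 samples. Libraries of a sample differed in both Retnlg and interferon-stimulated genes, so the split was also made within each of 17 libraries with at least 10 neutrophils on either side. There Mmp8 and Camp were higher in 17 of 17 libraries, by 24.9 to 51.3 and 0.52 to 33.2 points, and Isg15 in 16 of 17 (-3.62 to 38.96). Ifit3, also interferon-stimulated, and the gelatinase gene Mmp9 were less even. Each was higher in 5 of 6 samples and in 12 of 17 libraries (-10.0 to 24.7 and -12.0 to 15.7 points). Cxcr4 differed by -17.9 to -5.17 points, in 6 of 6 samples lower with Retnlg. Vegfa differed by -16.0 to -1.27 points and Il1r2, the decoy receptor for interleukin 1, by -13.4 to -2.57, both in 6 of 6 samples. Within libraries Cxcr4 was lower in 16 of 17 and Vegfa and Il1r2 in 17 of 17. Il1b and Ccl3, both inflammatory, were lower with Retnlg in 5 of 6 samples, Il1b at -8.41 to 1.55 points and Ccl3 at -13.3 to 7.01. Within libraries Il1b was lower in 15 of 17 and Ccl3 in 17 of 17.

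**Figure D5:**
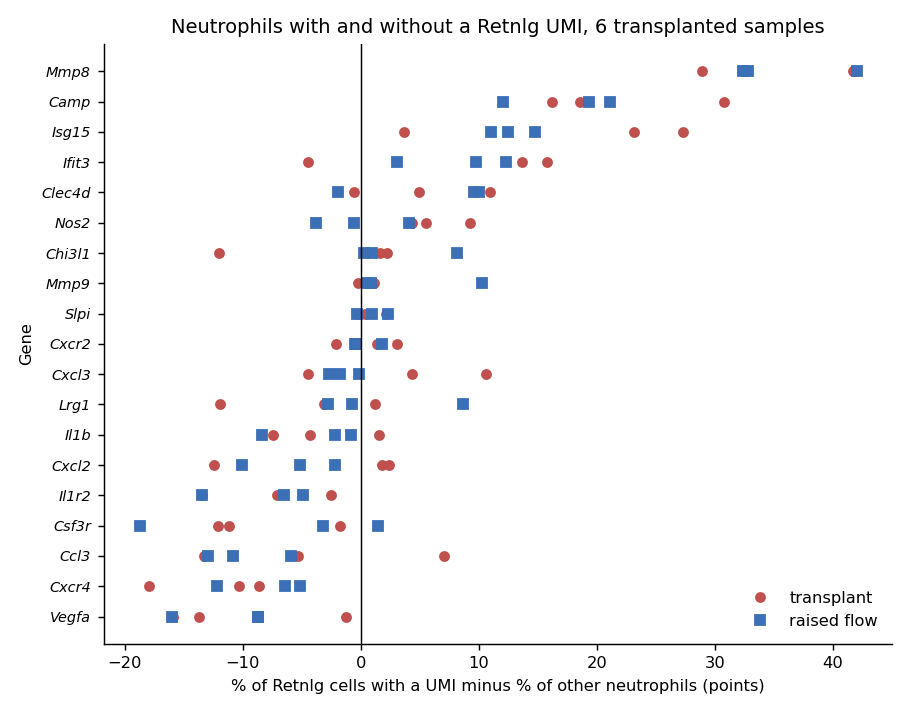
Difference in percent detected between neutrophils with and without a Retnlg UMI, after thinning to 1000 UMIs, for 19 genes in 6 transplanted samples (points, samples). Mmp8, Camp and Isg15 lie above 0 in all 6 samples, and Cxcr4, Vegfa and Il1r2 below 0 in all 6.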

How the data were processed

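Raw UMI counts for each gene in each barcode, not normalized and with empty barcodes kept, were deposited by the authors for 20 libraries. The matrix headers name Cell Ranger 4, and the submitters' processing notes list Cell Ranger 5.0.1 and Seurat 3.2.0. The genome build is not given in the sources used here, so no coordinates are printed. Per the labels, tissue was digested with enzymes, dead cells were removed and red cells lysed. The matrices held 21270647 to 290590249 UMIs per sample over 23999 features (23836 symbols, counts of shared symbols added up). No column belonged to other samples (0).

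The neutrophil rule, the gene lists and the comparisons were chosen with earlier results of these data known. The lists cover azurophil, specific and gelatinase granules, defensins, antiproteases, chemoattractant receptors, adhesion, cytokines and chemokines, NF-kB, interferon-stimulated genes, NADPH oxidase and traps, glycolysis and hypoxia, survival, immediate early genes, lipid mediators, maturation factors, cell cycle, antigen presentation and dissociation stress. Defa7, Gapdh, Mcl1, Bbc3, Ccnb2 and Hspa1a are not among the features. Named genes were the 10 largest log2 fold changes in each direction among called genes with at least 20 CPM in the higher group, no overlap between groups and a symbol. Overlap was judged on TMM-scaled CPM, and in the interactions on the difference between the classes in log2(CPM + 10). The levels printed are CPM without that factor, in which P4ha1, named for raised flow, does overlap. List members and genes of the library checks may be named besides. A few list members are not reported here by name. Doublets were not called beyond the lineage genes.

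Shares were compared over samples by two-sided exact permutation tests. UMIs of the neutrophils of a sample were summed and tested with edgeR 4.0.16 (quasi-likelihood, filterByExpr, Benjamini-Hochberg) in R 4.3.3. The model had terms for each day and for raised flow. Contrasts with sham, also in the interaction, were the mean of the day terms, so their fold changes hold for the transplant arm. Samples needed 10 neutrophils, so 1 sham sample was left out and 3 residual degrees of freedom remained. Rule genes, mitochondrial and hemoglobin genes were kept out of the calls. The design set TMM factors over all tested genes. On simulated counts this overstated changes against sham, where 4-fold genes were estimated at 2.81 on the log2 scale and 69 of 117 calls of the interaction with sham were false. Factors over genes with a mean of at least 100 CPM gave 2.26 and 0 false calls, and were used for contrasts with sham only, a change made after results were seen. At day 7 against day 1, 82% of simulated 4-fold genes and 10% of 2-fold genes were recovered, with 5.15% of calls false. For raised flow it was 96% and 17%, with 2.59% false. Against sham 15.2% and 0% were recovered with the abundant genes, and 31.3% and 0% with all genes, which gave 0 false calls among 31 in that contrast without the interaction. The free RNA share was set by genes that mark other cells and the profile of barcodes with 100 UMIs or fewer. Alternatives were DESeq2 1.42.0, no filter, other limits, subtraction of free RNA, libraries as samples, and each sample left out. Python 3.11.15 with SciPy 1.17.1 was used.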

Additional observations from a re-analysis of the deposited data

Results flagged for a closer look

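The change from day 1 to day 7 differed between neutrophils and Csf1r barcodes for 233 genes at an adjusted p under 0.05 (150 higher and 83 lower, 2.24% of 10399 tested, edgeR's quasi-likelihood interaction test), and the difference between transplanted and sham samples did so for 101 genes (61 higher and 40 lower, 0.971%). In the latter, 3 of 26 interferon-stimulated, 5 of 18 immediate early and 3 of 9 dissociation and stress genes were higher in neutrophils. The median over all genes was 1.45. In barcodes outside the limit on genes, with over 200 and at most 400 genes, 4972 passed the S100 and lineage limits. They were 15.3% of such barcodes in transplanted samples and 1.96% in sham, but 4.37% of the former without library 2 of day 7 in each arm, and sham sample 3 (4.96%) lay above days 1 and 3 of the transplant arm (4.03% and 2.69%).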

How the results depend on the processing

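No paired analysis was possible because the labels give the groups no shared replicate numbers, though day was a term in every fit and the arms' shares were compared within days. The contrasts with sham used factors from abundant genes, a choice made after seeing the data, as were the alternatives that leave out libraries. The planned factors over all tested genes gave 439 calls in place of 101 in the interaction with sham (96.1% higher, median over all genes 2.25). The share difference from sham was 12.8 points over Ptprc barcodes, and that of raised flow -7.82 with libraries as samples. Leaving out 1 sample gave 6.40 to 9.44 points against sham, -13.8 to -5.16 for day 7 and -10.4 to -5.56 for raised flow.

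Numbers of genes called moved as follows. The minimum of 10 neutrophils also changed the sham samples in 2 settings. Sample 3 left the fit with more lineage genes at 0 (9 neutrophils), and sample 2 entered it with over 200 genes per barcode (25 neutrophils). Each of these settings thus changed the limit and the samples at once. Against sham (85) they were 3 with libraries as samples, 139 with over 200 genes per barcode and 0 with more lineage genes at 0 (422 at an unadjusted p under 0.05), and 4 to 91 with 1 sample left out. At day 7 (215) they were 111 with more lineage genes, 72 with at least 30 neutrophils, and 75 to 300 with 1 sample left out, 75 being without day 7 of the transplant arm. For raised flow (20) they were 39 without the filter, 0 with libraries as samples (304 unadjusted), 33 with over 200 genes, 1 with more lineage genes, 34 with free RNA subtracted, 0 with at least 30 neutrophils (361 unadjusted), 13 without the second libraries of day 7, 4 without the second library of day 1 of the transplant arm, and 2 to 38 with 1 sample left out. In the interaction with sham they were 63 with DESeq2, 10 with libraries, 155 with over 200 genes, 56 with an S100 limit of 10%, 28 with more lineage genes, 52 without the second libraries of day 7, and 49 to 101 with 1 sample left out. In that of day 7 (233) they were 84 with DESeq2, 135 with libraries, 155 with the S100 limit of 10%, and 38 to 360 with 1 sample left out. At least 30 neutrophils left no sham sample, so that alternative gave no value there.

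Some calls turned direction. Against sham with more lineage genes, where sham was sample 1 alone, Pla2g1b was 5.59 (SE 14.6) and Ctrc 6.76 (SE 10.1). With 1 sample left out they ranged from -7.12 to -2.46 and from -5.12 to -1.20. At day 7 after free RNA subtraction, Reg3b was 0.21, Reg3g 0.77, RT1-Ba -0.064 and Cd74 -0.34. RT1-Da (-8.93) and RT1-Db1 (-8.30) turned there too, where counts below 0 were set to 0. In the interaction with sham, Cxcl3 was -1.24 without sham sample 3 (range -1.24 to 17.39 with 1 sample left out). In the interaction of day 7, Serpinb1a was 0.64 without day 1 of the raised-flow arm (range -3.54 to 0.64). The cause was not tested, apart from the subtraction itself. For the 58 genes followed at day 7, 1150 of 1324 alternative values kept direction and side of the threshold, and for the 46 followed under raised flow 938 of 1054. Against sham it was 1050 of 1289 for 59 genes. In the interactions it was 663 of 782 for 34 genes at day 7 and 426 of 594 for 27 genes with sham. Depth limits sham most, with 70651 neutrophil UMIs.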
